A study of Mus musculus with 4 samples.

Results

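The olfactory receptor genes of mouse chromosomes 9, 14 and 19 were examined for binding of RAD21, a subunit of cohesin. The members are the genes whose symbols begin with Olfr on these 3 chromosomes of the mm9 mouse genome, in GENCODE annotation of that build. There were 242 such genes among 1251 Olfr genes and 37310 annotated genes in all. Genes less than 200 kb apart were joined into a cluster, which gave 10 clusters, 7 with 2 or more genes and 3 with 1 gene. RAD21 sites were counted within these clusters and in the 200 kb on either side of each, called the flanks. RNA was not measured in these libraries, so whether the genes were silent was not checked.

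RAD21 was mapped by chromatin immunoprecipitation and sequencing (ChIP-seq) in 4 libraries, with 1 library per group. The cells were R1/E mouse embryonic stem cells (ESCs) at day 0 and embryoid bodies (EBs), aggregates in which ESCs differentiate, at day 12. All cells carried a bacterial artificial chromosome with a GFP-tagged Rad21 gene in addition to their own Rad21, and tagged cells had been sorted for GFP. RAD21 libraries were made with a goat antibody against eGFP and the control libraries with a goat IgG isotype antibody, although the labels of the controls also mention input DNA. EBs are mixtures of cell types, and a site used by few of their cells cannot be told apart from a site used weakly by many. With no replicates no test between conditions was possible, and all 95% intervals below cover counting error only.

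Olfactory receptors are the odorant-detecting G protein-coupled receptors of olfactory sensory neurons, and they form the largest gene family of the mouse. Their genes are short, stand in large tandem arrays with few other genes between them, and each neuron expresses a single allele of a single receptor. Cohesin holds DNA loops and sister chromatids together and is often found at binding sites of the insulator protein CTCF, which recognizes a long DNA motif.

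Of the 242 members 135 lay on chromosome 9, 40 on chromosome 14 and 67 on chromosome 19. The annotation classed 234 as protein coding and 8 as pseudogenes, and the median gene length was 951 bp. The largest cluster, chr9:37518857-39995679, held 97 genes from Olfr151 to Olfr986 and lay between Panx3, a pannexin gene, and Zfp202, a zinc finger gene. The other chromosome 9 cluster, chr9:18559100-20140538, held 38 genes from Olfr24 to Olfr18 between Muc16, a mucin gene, and Zfp560. On chromosome 19, 46 genes from Olfr1442 to Olfr1505 occupied chr19:12748669-13994534 between Glyat and Tle4, a gene for a transcriptional corepressor. A further 21 genes from Olfr1417 to Olfr1441 occupied chr19:11902567-12497842 between Stx3, a syntaxin gene, and Pfpl. The largest chromosome 14 cluster, chr14:50513935-51363999, held 27 genes from Olfr722 to Olfr749 between 3632451O06Rik and Ttc5. Smaller chromosome 14 clusters were chr14:52968778-53115370 with 7 genes from Olfr1513 to Olfr1507, and chr14:15007609-15240679 with 3 genes from Olfr720 to Olfr721-ps1. Olfr750, Olfr221 and Olfr49 on chromosome 14 each stood alone. The clusters covered 7.13 Mb in all and had a GC content of 38.3%, against 42.6% in the 3.69 Mb of flanks and 42.2% in the remaining 289.7 Mb of the 3 chromosomes.

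RAD21 sites were sparser within the clusters than around them. The ESC list held 13 sites within the clusters, 1.82 per Mb (exact Poisson interval 0.970 to 3.12), and the EB list 10 sites, 1.40 per Mb (0.672 to 2.58). The flanks held 38 ESC sites, 10.3 per Mb (7.29 to 14.1), and 31 EB sites, 8.40 per Mb (5.71 to 11.9). The rest of the 3 chromosomes held 6.22 sites per Mb in ESCs and 4.60 in EBs. Site density within the clusters was thus 0.177 times that of the flanks in ESCs (exact interval 0.0865 to 0.340) and the EB ratio was 0.167 (0.0730 to 0.349). It was 0.293 times that of the rest of the chromosomes in ESCs (0.156 to 0.502) and the EB ratio was 0.305 (0.146 to 0.562). These ratios pool the 3 chromosomes. On each chromosome alone they were also below 1, but some intervals included 1. Against the rest of chromosome 14 the ratio was 0.374 in ESCs (0.0452 to 1.36) and 0.225 in EBs (0.00568 to 1.26). Against the flanks of chromosome 19 it was 0.295 in ESCs (0.0711 to 1.16). The other intervals by chromosome lay below 1. The flanks exceeded the rest 1.65-fold in ESCs (1.17 to 2.28) and 1.83-fold in EBs (1.24 to 2.60). With lone genes left out, the flanks held 8.68 ESC sites per Mb (5.50 to 13.0) and 8.30 EB sites per Mb (5.20 to 12.6). The ESC interval includes the 6.22 of the rest, so without lone genes no ESC excess was detectable. This restriction was not planned. In 10 of 10 clusters the flanks were denser than the inside, in ESCs as in EBs. However, 5 clusters in ESCs and 6 in EBs held no site, and the 5 smallest are too short to show a lower density, so this count rests on the larger clusters.

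Base composition moved with these densities. In 100 kb windows of the rest of the 3 chromosomes with a GC content between 36.6 and 40.8%, the central range of windows in the clusters, there were 2.37 ESC sites per Mb (2.07 to 2.70) and 2.56 EB sites per Mb (2.25 to 2.91). The clusters held 0.769 times the ESC density of these windows (0.403 to 1.34) and 0.547 times their EB density (0.259 to 1.02), and both intervals include 1. When the sites expected were summed over classes of 1% GC, 13.7 were expected in the clusters from the ESC density of the rest and 13 were listed, a ratio of 0.947 (0.504 to 1.62). In EBs 15.6 were expected and 10 were listed, a ratio of 0.642 (0.308 to 1.18). A lower density than in sequence of like GC content was not detectable in these clusters at these counts. The GC classes were added after the data were seen. The flanks, those of lone genes included, held more sites than their GC content gave. In ESCs 38 stood against 24.2 expected, a ratio of 1.57 (1.11 to 2.16), and in EBs 31 against 18.3, a ratio of 1.69 (1.15 to 2.40). Gene content also moved with the densities, since starts of other protein coding genes numbered 2.10 per Mb in the clusters, 3.43 in the GC-like windows, 9.02 in the rest and 21.7 in the flanks. The part of gene content in the site densities was not tested.

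**Figure D1:**
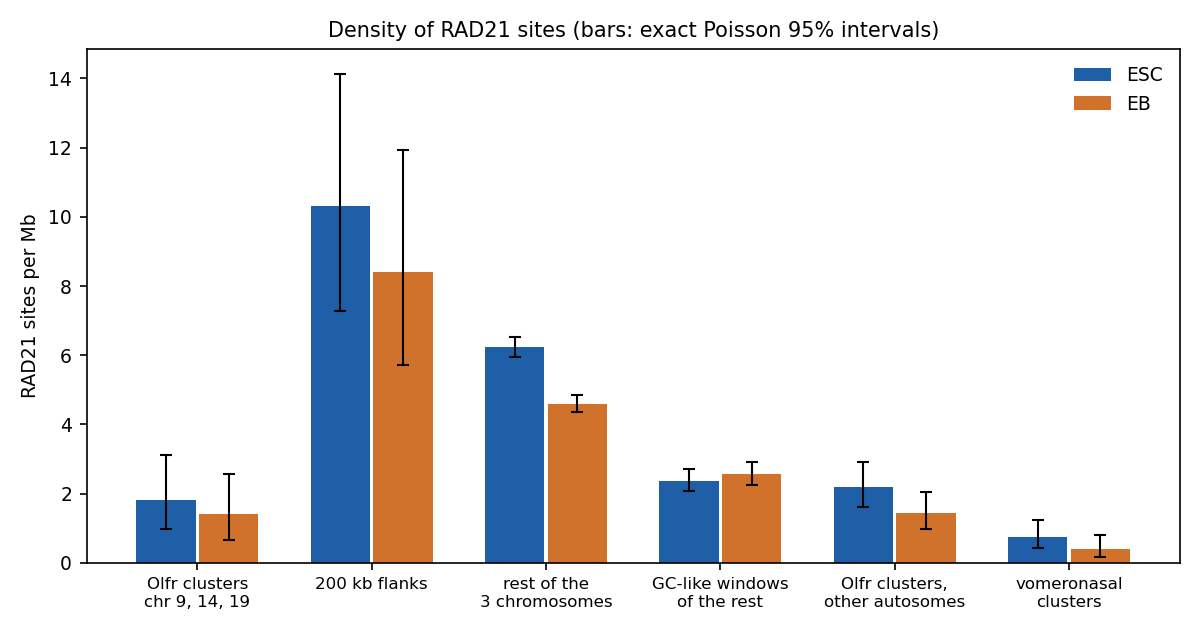
RAD21 sites per Mb (vertical axis) in ESCs and EBs for the Olfr clusters of chromosomes 9, 14 and 19, their flanks, the rest of these chromosomes, windows of the rest with like GC content, Olfr clusters of the other autosomes and vomeronasal receptor clusters. Error bars are exact 95% Poisson intervals. The flanks stand highest at 10.3 and 8.40 per Mb, and the clusters at 1.82 and 1.40 lie near the GC-like windows at 2.37 and 2.56.

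The other receptor arrays of the genome were compared in the same way. Olfr clusters on the other autosomes, 1001 genes in 53 clusters, held 2.20 ESC sites per Mb and 1.45 EB sites per Mb, with 10.2 and 6.80 in their flanks. The chromosome 9, 14 and 19 clusters had 0.829 times the ESC density of these clusters (0.412 to 1.56) and 0.967 times their EB density (0.423 to 2.02), so no difference was detectable. Vomeronasal receptor genes encode pheromone receptors and stand in similar arrays. Their 51 clusters held 0.754 ESC sites and 0.402 EB sites per Mb, and the Olfr clusters exceeded them 2.42-fold in ESCs (1.06 to 5.44) and 3.48-fold in EBs (1.24 to 10.2). However, 1 kb bins with reads in both IgG libraries made up 54.1% of the vomeronasal clusters and 79.7% of the Olfr clusters. The part of this difference in read coverage in the site densities was not tested.

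Where an array held a site, the nearest site outside its border was mostly closer than the nearest inside. Over the 14 borders of the 7 clusters of 2 or more genes, 10 had an ESC site inside the cluster and 8 an EB site. The nearest site outside was closer than the nearest inside at 10 of these 10 in ESCs and at 7 of these 8 in EBs. The other borders belong to clusters with no site, where no such comparison can be made. The median distance to the nearest site outside was 37.0 kb in ESCs and 68.9 kb in EBs. The first 100 kb outside the borders held 17 ESC sites, 12.1 per Mb (7.07 to 19.4), and 16 EB sites, 11.4 per Mb (6.53 to 18.6). The first 100 kb inside held 1 ESC site, 0.743 per Mb (0.0188 to 4.14), and no EB site (0 to 2.74 per Mb). At Olfr24, which opens the first chromosome 9 cluster, a site listed in both cell types lay 9.87 kb outside in ESCs and 9.77 kb in EBs. At Olfr1513 on chromosome 14 a shared site lay 10.2 kb outside in ESCs and 10.3 kb in EBs, and at Olfr1441 on chromosome 19 a shared site lay 9.92 kb outside in ESCs and 9.93 kb in EBs. The exception was Olfr1417, where the nearest EB site inside lay at 185 kb and the nearest outside at 217 kb. On the far side of the Olfr1507 cluster no ESC site followed for 1309 kb and no EB site for 274 kb.

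**Figure D2:**
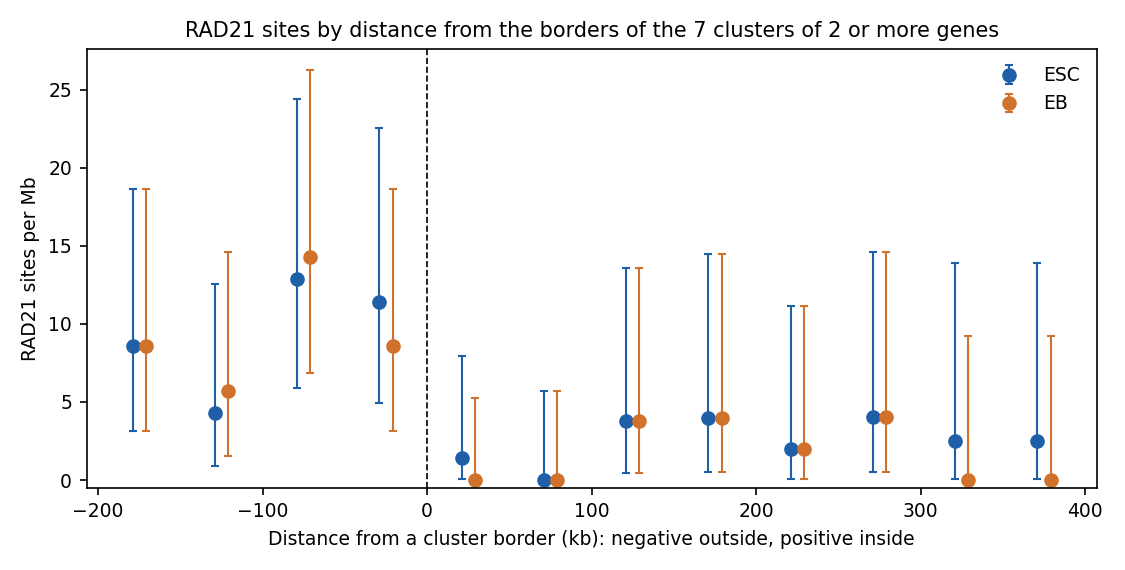
RAD21 sites per Mb (vertical axis) by distance from the borders of the 7 clusters of 2 or more genes in bins of 50 kb, negative outside and positive inside (horizontal axis). Points are ESC and EB densities with exact 95% Poisson intervals. The outer 100 kb hold 17 ESC and 16 EB sites and the inner 100 kb hold 1 and 0.

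The strongest flank sites are given with the nearest protein coding gene that is no olfactory receptor. Scores of sites are -10 times the log10 of the p-value of the peak caller. The highest ESC score in a flank was 415.78, at chr14:54847246-54848638, 53.7 kb from the border at Olfr49 and 26.0 kb from the start of Dad1, a subunit of the oligosaccharyl transferase. The second, 377.76, lay 10.2 kb from Slc39a2, a zinc transporter gene near Olfr221, and the third, 313.22, 16.1 kb from Dtx4 near Olfr1441. In EBs the highest was 366.12, at chr14:51682536-51683496, 6.86 kb from Olfr750 and 6.21 kb from Rnase12, a ribonuclease gene. The second EB site, with a score of 331.3, lay 61.4 kb beyond Olfr1505 and 617 kb from the start of Tle4, and the third, with 315.33, was the site near Dtx4. All 6 of these were listed in both cell types. Within the clusters scores reached 243.56 in ESCs and 292.5 in EBs, while the ESC medians were 109 in clusters, 100.1 in flanks and 96.4 in the rest. The EB medians ran the other way, with 80.2 in clusters and 101 in flanks as in the rest.

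Along the arrays sites left long stretches of receptor genes without a listed site. In the 97-gene cluster the longest ESC stretch without a site ran for 955 kb and held 42 Olfr starts. In the cluster from Olfr1442 to Olfr1505 it ran for 1095 kb with 37 Olfr starts. The cluster from Olfr24 to Olfr18 had 1 ESC site and no EB site over 1581 kb and 38 genes, where 0 sites has an exact interval of 0 to 2.33 per Mb. In all, 5 clusters held no ESC site and 6 held no EB site, the 3 clusters of 1 gene among them. The median member lay 130 kb from the nearest ESC site and 178 kb from the nearest EB site, against 35.6 and 50.4 kb for other protein coding genes of the 3 chromosomes. A site lay within 10 kb of 11 members in ESCs, 4.55%, and of 7 in EBs, 2.89%. For other protein coding genes of the 3 chromosomes these shares were 18.7 and 13.3%.

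**Figure D3:**
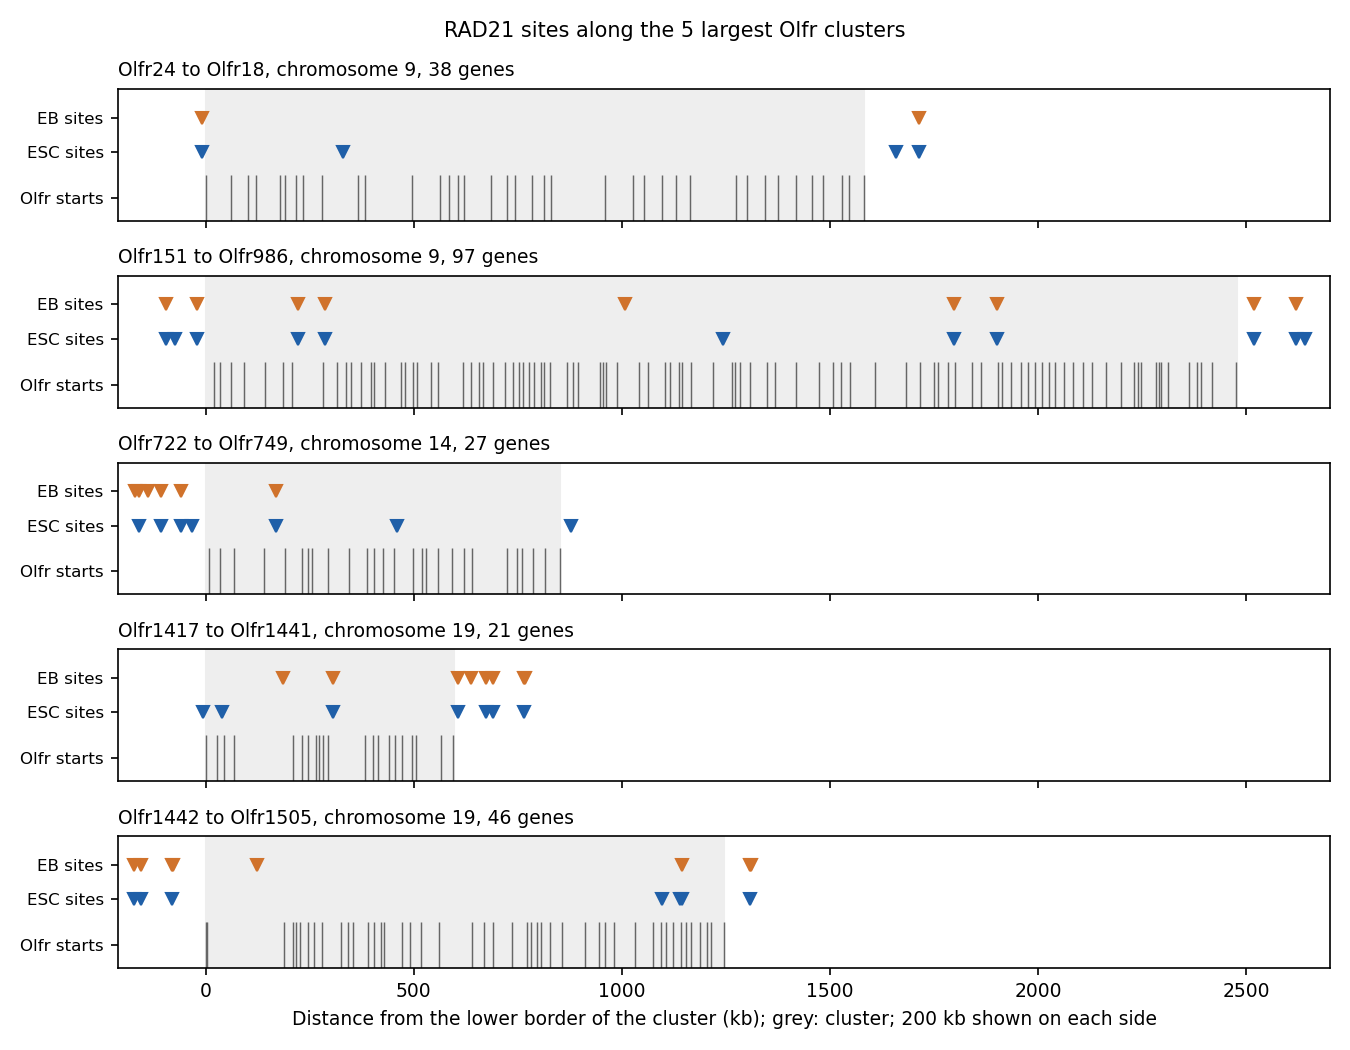
Starts of Olfr genes (grey lines) and RAD21 sites of ESCs and EBs (triangles) along the 5 largest clusters, by distance in kb from the lower border of each cluster. Grey shading marks the cluster, with 200 kb shown on either side. Sites are denser on either side than within the shaded regions, and the 38-gene cluster holds 1 ESC site and no EB site.

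The 13 ESC and 10 EB sites within clusters made up 16 places when overlapping sites were joined. Of these, 7 were listed in both cell types, 6 in ESCs only and 3 in EBs only. The sites listed in both made up 53.8% of the ESC sites (Clopper-Pearson interval 25.1 to 80.8%) and 70.0% of the EB sites (34.8 to 93.3%), against 49.9 and 67.9% in the rest of the 3 chromosomes. By position, 12 of the 13 ESC sites and 10 of the 10 EB sites were intergenic, against 55.9 and 54.0% in the rest, and the remaining ESC site lay in an exon of Olfr1495. Intergenic sequence also makes up most of these arrays, and its share of the length was not set against these counts. The sites listed in both lay 1.36 to 21.9 kb from the nearest Olfr start.

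CTCF motif matches were sparse in the clusters too. The CTCF motif was scored with a matrix of 20 positions learned at ESC sites of the other autosomes, on both strands, at a threshold that 1e-05 of the positions of chromosome 1 pass. The clusters held 21 matches, 2.94 per Mb (1.82 to 4.50), against 17.3 per Mb in the flanks and 11.7 per Mb in the rest. Their density was 0.251 times that of the rest (0.155 to 0.384), whereas classes of 1% GC gave 30.2 expected matches and a ratio of 0.695 (0.430 to 1.06). An ESC site lay within 150 bp of 5 of the 21 matches, 23.8% (8.22 to 47.2%), where the 3 chromosomes as a whole had 24.2%. An EB site lay at 2 of the 21, 9.52% (1.17 to 30.4%), where the 3 chromosomes had 17.2%. Both intervals include the share of the chromosomes. Conversely 5 of the 13 ESC sites and 2 of the 10 EB sites had a match within 150 bp of the summit, 38.5% (13.9 to 68.4%) and 20.0% (2.52 to 55.6%), against 45.2 and 43.3% in the rest. The threshold lay at 12.7021 bits, and the site near Olfr1499 that was listed in both cell types reached 12.7014 bits. Its absence from both counts rests on this small difference.

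The 5 cluster sites with a match are shown because they differ in whether the EB list holds the site. Each sequence was read from mm9 on the strand of the motif, the 20 bases of the match are in capitals, and sites are named by the nearest Olfr gene. The first pair were listed in both cell types and the next 3 in ESCs only.
Olfr957, chr9:39316735-39316794, plus strand: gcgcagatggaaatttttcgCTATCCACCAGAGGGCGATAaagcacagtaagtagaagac
Olfr878, chr9:37740267-37740326, minus strand: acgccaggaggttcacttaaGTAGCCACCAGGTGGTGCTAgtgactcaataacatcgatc
Olfr735, chr14:50972291-50972350, plus strand: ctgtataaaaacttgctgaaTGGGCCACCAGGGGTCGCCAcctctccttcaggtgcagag
Olfr1499, chr19:13887477-13887536, minus strand: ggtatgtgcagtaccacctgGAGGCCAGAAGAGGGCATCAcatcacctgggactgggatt
Olfr836, chr9:18889593-18889652, plus strand: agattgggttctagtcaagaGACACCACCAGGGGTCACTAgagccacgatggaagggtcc

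A match is a description of the sequence, and where none was found this says only that no such letters stand in the window searched. The match at Olfr957 scored highest, at 22.2 bits. The match at Olfr878 scored 14.1 bits, and those at Olfr735, Olfr1499 and Olfr836 scored 14.7, 12.9 and 12.8 bits. At a looser threshold, passed by 1e-04 of positions, 7 of the 7 sites listed in both had a match, as did 5 of the 6 listed in ESCs only and 0 of the 3 listed in EBs only. In the rest of the 3 chromosomes 80.5% of ESC sites and 76.0% of EB sites had one. Of such looser matches over the 3 chromosomes, 4.95% lay at an ESC site and 3.45% at an EB site.

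Reads within 250 bp of the summit were counted in every library and are given as raw reads, in the order ESC RAD21, ESC IgG, EB RAD21 and EB IgG. The EB libraries were shallower, so equal levels appear as fewer EB reads. Ratios between libraries were taken after scaling to 1000000 autosomal reads (RPM). For a site in both lists the summit is that of the higher score. Listing itself chose the sites, so the ratios at sites of 1 list are a description of the choice and carry no test. The sites were also called with the same IgG libraries as control. RAD21 over IgG at listed sites, single or summed, was thus raised by the choice and carries no test either.

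Among the 7 sites listed in both, the strongest lay at chr9:37739849-37740935 in the EB list, 14.2 kb from the start of Olfr878, with 37, 4, 36 and 2 reads. RAD21 exceeded IgG 8.50-fold in ESCs (3.05 to 32.8) and 16.1-fold in EBs (4.15 to 138). EB RAD21 was 1.72 times ESC RAD21 here (1.06 to 2.80). At the summit of the ESC list, chr9:37739706-37740949, EB RAD21 had 34 reads and the ratio was 1.63 (0.991 to 2.67), so whether the interval excluded 1 depended on the summit used. The intervals of the other 6 sites included 1. The site near Olfr957 had 30, 2, 25 and 3 reads, and the site near Olfr148, which lay 1.36 kb from its start, had 24, 2, 19 and 2. The site near Olfr76 had 29, 4, 14 and 0 reads. The sites near Olfr881 and Olfr726 were the weakest, with 14, 4, 14 and 2 reads and 14, 1, 13 and 2 reads. The shared site near Olfr1499 had 32, 5, 19 and 3 reads. Over these 7 sites EB over ESC RAD21 ranged from 0.855 to 1.77 with a median of 1.48.

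The 6 sites listed in ESCs only differed in how many EB reads they had. In the cluster that ends at Olfr1505, the site at chr19:13886993-13887826, 2.71 kb from the start of Olfr1499, had 28, 1, 1 and 0 reads. The site at chr19:13843102-13844099 lay within Olfr1495, 0.736 kb from its start, and had 22, 1, 1 and 1 reads. ESC RAD21 exceeded EB RAD21 15.8-fold at the first (2.61 to 646) and 12.4-fold at the second (2.01 to 512). The shared site near Olfr1499 lies in the same array and had 19 EB reads. The site near Olfr735, 7.82 kb from the start of Tlr11, a Toll-like receptor gene, had 23, 2, 3 and 1 reads, and the site near Olfr836 had 19, 4, 2 and 1. By contrast, the site near Olfr1419 had 28, 4, 7 and 2 reads and the site near Olfr933 had 18, 2, 8 and 0, and their EB over ESC intervals included 1. An absence from the EB list is thus no evidence of an absence of RAD21 at these last 2 sites.

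The 3 sites listed in EBs only are given with the nearest Olfr gene, and 2 of them also with another protein coding gene. These 2 other genes were named after their distances were seen. Of the 10 EB sites in clusters, 1 lay within 1 kb of a transcript start, against 8.63% in the rest. The Clopper-Pearson interval of that share, 0.253 to 44.5%, includes the share of the rest, so no excess near starts was detectable. The site at chr9:38525499-38526330 lay 84 bp from the start of Vwa5a and 19.8 kb from the nearest Olfr start, that of Olfr919, with 5, 2, 14 and 2 reads. The site at chr19:12871106-12872284 lay 1.19 kb from the start of Zfp91, a zinc finger gene, and 64.4 kb from Olfr1444, with 4, 1, 17 and 3 reads. The third, at chr19:12087012-12087525, lay 23.9 kb from Olfr1423 with 5, 1, 14 and 0 reads. EB over ESC RAD21 was 4.96 (1.69 to 17.6), 7.53 (2.46 to 30.8) and 4.96 (1.69 to 17.6) in this order. The 61 bases at each summit are shown on the plus strand of mm9, all in lower case since no CTCF match at either threshold lay within 150 bp.
Near Vwa5a, chr9:38525739-38525799, plus strand: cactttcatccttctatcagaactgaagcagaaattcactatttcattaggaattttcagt
Near Olfr1423, chr19:12087306-12087366, plus strand: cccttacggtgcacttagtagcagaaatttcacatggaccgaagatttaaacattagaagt
Near Zfp91, chr19:12871774-12871834, plus strand: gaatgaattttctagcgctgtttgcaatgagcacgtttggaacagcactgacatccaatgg

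**Figure D4:**
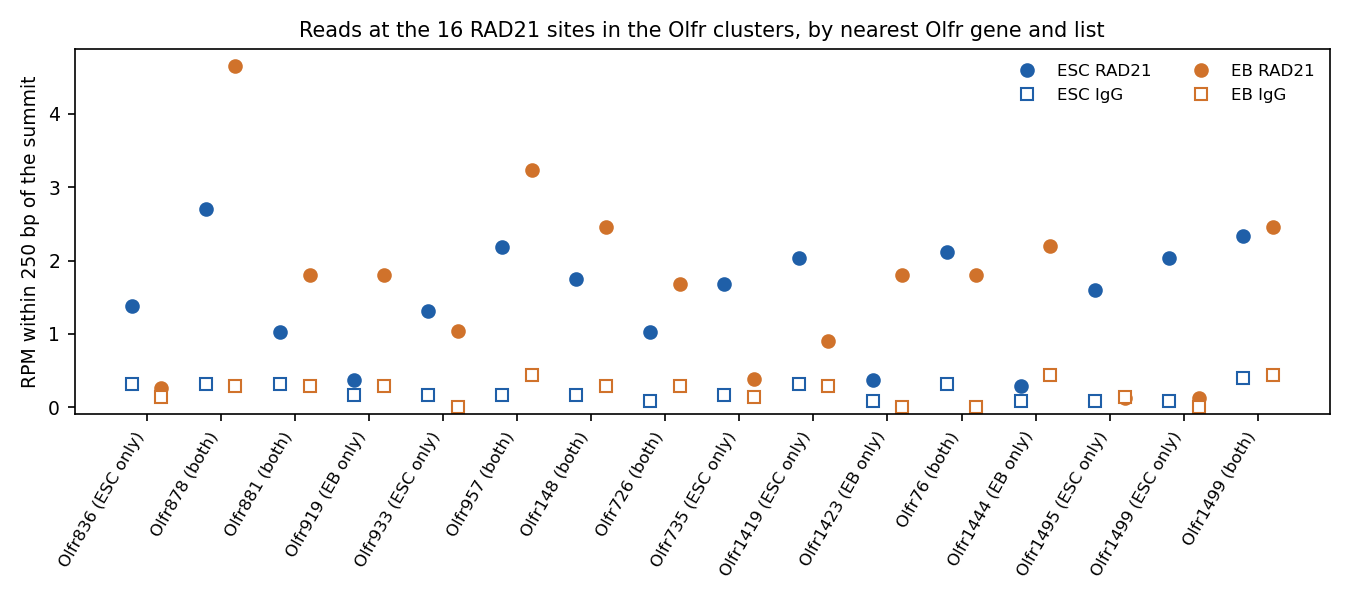
RAD21 reads (filled circles) and IgG reads (open squares) within 250 bp of the summit, in RPM, for ESCs and EBs, at the 16 sites in the clusters named by the nearest Olfr gene and the list that holds them. RAD21 stands above IgG in the cell types where a site was listed, as the listing itself requires. The ESC-only sites near Olfr1495 and Olfr1499 fall to 1 read in EB RAD21.

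Summed over the 16 sites, with the windows of the 2 lists joined, there were 337 ESC RAD21 reads against 41 ESC IgG reads and 209 EB RAD21 reads against 26 EB IgG reads. RAD21 exceeded IgG 7.55-fold in ESCs (5.45 to 10.7) and 7.20-fold in EBs (4.77 to 11.3), an excess for which the sites were listed. EB over ESC RAD21 was 1.10 (0.920 to 1.31) for this sum, which reflects how many sites of each list it holds, and single sites ran from 0.0633 to 7.53.

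The starts of the receptor genes themselves carried no excess of RAD21 reads over IgG. Within 1 kb of a start the median member had 12 ESC RAD21 reads, 12 ESC IgG reads, 7 EB RAD21 reads and 7 EB IgG reads. The ranges were 2 to 36, 1 to 31, 0 to 20 and 0 to 17 in the same order. Of the 242 members, 0 had no ESC RAD21 read, 2 had no EB RAD21 read and 1 had no EB IgG read. Summed over all members, RAD21 was 0.931 times IgG in ESCs (0.885 to 0.980) and 0.861 times IgG in EBs (0.804 to 0.921). At other protein coding genes of the 3 chromosomes the ratios were 1.25 (1.23 to 1.28) and 1.41 (1.38 to 1.45). Olfr genes of the other autosomes gave 0.931 and 0.852. EB over ESC RAD21 at member starts was 0.978 (0.921 to 1.04).

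Counted gene by gene, with 1 read added to each count, RAD21 was at least 2-fold over IgG at 8 of 242 members in ESCs, 3.31% (1.44 to 6.41%), where 14.1% of all autosomal genes passed. In EBs it was 13 of 242, 5.37% (2.89 to 9.01%), where 21.3% of all autosomal genes passed. Both shares were below the background. No member passed in both cell types. The share of all autosomal genes that passed in both was not counted, so this is not a result about the members. In the other direction IgG was at least 2-fold over RAD21 at 13 members in ESCs, 5.37%, against 4.93% of all genes, and at 31 members in EBs, 12.8%, against 8.98%. EB RAD21 was at least 2-fold over ESC RAD21 at 13 members, 5.37%, and ESC over EB at 15, 6.20%, against 11.6% of all genes in each direction. Between the controls, EB IgG was at least 2-fold over ESC IgG at 21 members, 8.68%, against 9.51% of all genes, and ESC over EB at 18, 7.44%, against 12.2%. A listed site lay within 1 kb of 1 member start in ESCs, that of Olfr1495, 0.413% against 2.10% of all genes. In EBs none of the 242 starts had one, against 1.86% of all genes. Taking 0 to allow 3 permits a share of up to 1.24%, and the exact interval reaches 1.51%.

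With 1 read added to each count, the member with the highest ESC ratio was Olfr1495 at 3.09, where ESC RAD21 gave 36 reads and ESC IgG 10, EB RAD21 gave 11 and EB IgG 9, and the window holds the ESC-only site described above. Without the added read its ratio was 3.31 (1.61 to 7.47). Olfr1447 followed at 2.94 with 15 reads of ESC RAD21 and 4 of ESC IgG, or 3.45 without the added read (1.10 to 14.3), although the nearest ESC site was 310 kb away. Olfr844 had 11 and 3 reads, Olfr1443 15 and 5, and Olfr1425 12 and 4, and these 3 intervals included 1. In EBs the highest was Olfr981 with 7 RAD21 reads and no IgG read. Olfr1489 had 20 RAD21 and 6 IgG reads in EBs, a ratio of 2.98 (1.16 to 9.08), against 24 and 18 in ESCs. Olfr1491 had 11 and 3 EB reads, Olfr151 had 5 and 1, and Olfr855 had 14 and 4, again with intervals that included 1. These genes were picked as the highest of 242, so their intervals carry no test.

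The members with the highest IgG level, summed over both IgG libraries as RPM so that the shallower EB library counts equally, were Olfr916, Olfr911-ps1, Olfr1427, Olfr843 and Olfr922. Olfr916 had 26 ESC IgG reads against 11 ESC RAD21 reads and 14 EB IgG reads against 7 EB RAD21 reads. Olfr921 had the most ESC IgG reads, 31, but is not among these 5. Olfr1427 had 19 against 10 in ESCs and 16 against 3 in EBs. Olfactory receptor genes include near-identical copies, and how reads that match several places were handled is not given in the sources used here, so counts at single members are uncertain in that respect.

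**Figure D5:**
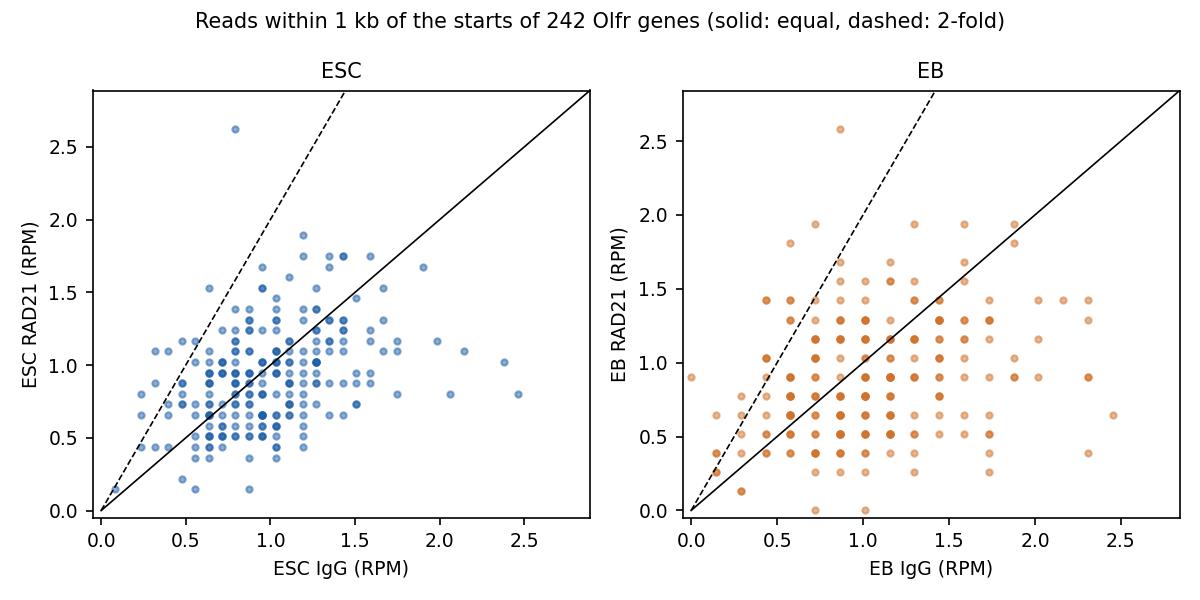
RAD21 reads (vertical axis) against IgG reads (horizontal axis), both in RPM within 1 kb of the start, for each of the 242 members in ESCs and in EBs. The solid line marks equal values and the dashed line 2-fold. Most members scatter around or below the solid line, and Olfr1495 is the highest point in ESCs.

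The same ratios were taken over the whole arrays. Away from listed sites RAD21 was 0.922 times IgG in the clusters in ESCs (0.908 to 0.936) and the EB ratio was 0.838 (0.822 to 0.855). The GC-like windows gave 0.928 (0.924 to 0.931) in ESCs, which overlaps the clusters, and 0.919 (0.914 to 0.924) in EBs, which does not. In the flanks the ratios were 0.995 and 0.980. IgG levels away from sites rose from 0.361 RPM per kb in ESCs to 0.414 in EBs in the clusters, a ratio of 1.15 (1.13 to 1.17), and the GC-like windows also gave 1.15. RAD21 levels away from sites were 1.04 times as high in EBs as in ESCs in the clusters (1.03 to 1.06) and 1.13 times in the GC-like windows (1.13 to 1.14). The part of the higher EB IgG level in the low EB ratios was not tested.

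Genes that olfactory sensory neurons use together with the receptors were examined from a list of 16, all of which were found in the annotation. The list holds signalling and structural genes (Gnal, Adcy3, Cnga4, Cngb1, Ano2, Omp, Slc24a4), receptor transport and exchange factors (Rtp1, Rtp2, Ric8b) and regulators of receptor choice (Lhx2, Ldb1, Emx2, Ebf1, Kdm1a, Atf5). A RAD21 site lay within 25 kb of the start of 9 of the 16 in ESCs and of 6 in EBs. Within 1 kb there was none, and taking 0 to allow 3 permits up to 18.8%. Cngb1 had 0 reads in all 4 libraries within 1 kb of its start, so no site could be seen there. Of all autosomal genes 2.10% had an ESC site and 1.86% an EB site within 1 kb, so 16 genes are too few to show a lower share. Among other protein coding genes of the 3 chromosomes 39.1% had a site within 25 kb in ESCs and 29.8% in EBs, and among the 242 receptor genes 11.2 and 8.26%. Most of the 16 genes lie on other chromosomes, for which this share was not counted. The highest-scoring nearest site was that of Kdm1a, the lysine demethylase LSD1, at 18.7 kb with a score of 522.89 in ESCs and 410.79 in EBs. Ebf1, an early B cell factor also used in olfactory neurons, had a site 6.23 kb away with a score of 343.83 in ESCs and one 6.21 kb away with 218.45 in EBs. Gnal, the olfactory G protein alpha subunit, and Rtp1, a receptor transporter, also had a site within 25 kb in both lists, as did Ldb1, a cofactor of LIM proteins. Adcy3, Cnga4, Rtp2 and Emx2 had one in ESCs only, and Omp, the olfactory marker protein, had one 10.1 kb away in EBs only.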

How the data were processed

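The members, lists and tests were chosen with earlier results of these data known. The authors sequenced 35 base reads and deposited aligned positions on mm9, 1 read per line. The aligner is not given in the sources used here. Peaks were called by the authors with MACS in each cell type with IgG as control. The deposited score is -10 times the log10 of the p-value (lowest 50.01 in both lists), and the deposited summit signal is the height of piled-up reads. The EB IgG file ended within chromosome X, and 7 broken lines of the ESC IgG file were skipped. Autosomal reads numbered 13714772 (ESC RAD21), 12602155 (ESC IgG), 7740389 (EB RAD21) and 6929293 (EB IgG), and no position and strand was repeated on the main chromosomes.

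Gene models were GENCODE for mm9, and no read lay beyond the chromosome ends. A site was placed by its summit. Reads were moved to the middle of the fragment (203 bp in ESCs, 193 bp in EBs). Densities have exact Poisson intervals, ratios intervals of a binomial conditional on the summed counts, and shares Clopper-Pearson intervals, all at the 95% level, and a count of 0 was taken to allow 3. Per-gene ratios used 1 added read, and a call was 2-fold. The genes named were the nearest Olfr gene of each site and the 5 members with the highest RAD21 over IgG per cell type. Also named were the 5 members with the highest IgG RPM summed over both IgG libraries, and genes at the 3 highest flank sites per list. Genes bordering the largest clusters and listed neuron genes with a site within 25 kb were named too. Vwa5a, Zfp91 and Tlr11 were named after their distances were seen. Python 3.11.15, NumPy 2.4.6, pandas 2.3.3 and SciPy 1.17.1 were used, and scripts were tested on simulated data. Alternatives concerned site position, score, gap, flank, members, reference, window, scaling, read shift, pseudocount, overlap and motif threshold.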

Additional observations from a re-analysis of the deposited data

Results flagged for a closer look

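At the site within Olfr1495 RAD21 was 20.2 times IgG in ESCs and 0.895 times IgG in EBs, so that the ESC and EB libraries lay on opposite sides of equality. The site was listed in ESCs for its excess over IgG, so the ESC value carries no test. The EB value rests on 1 read in each library. The difference between the cell types was not tested.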

How the results depend on the processing

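No paired analysis was possible because each group had 1 library. Of 106 alternative values, 90 stayed within the interval of the reported value, and 16 left it. Several of the 90 equal the reported value, as with peak overlap in place of the summit, so this tally is no measure of robustness. No value whose interval excluded 1 changed direction. Density within clusters stayed below that of the flanks in 18 of 18 values, the reported ones included, each with an interval below 1, and below that of the rest in 20 of 20, of which 16 had an interval below 1. The 4 others used a reference of like GC content: GC-like windows moved the ESC ratio to the rest to 0.769, and classes of 1% GC, chosen after seeing the data, moved it to 0.947 in ESCs and 0.642 in EBs. A score of at least 100 gave 5.15 ESC and 4.34 EB sites per Mb in the flanks and 0.561 EB sites per Mb in clusters. Joining genes at under 500 kb gave 2.62 EB sites per Mb in clusters, 0.569 times the rest and 0.366 times the flanks. Shares of starts at 2-fold were 10.7% (ESC) and 12.4% (EB) in windows of 500 bp, and 0.413% in both at 5 kb. The share over all genes was not counted at these windows, so these values cannot be set against the background at 1 kb. Windows of 5 kb moved EB over ESC RAD21 at starts from 0.978, whose interval included 1, to 1.05 (1.03 to 1.08), on the other side of 1. At the motif threshold of 1e-04 the shares of sites with a CTCF motif were 92.3% (ESC) and 70.0% (EB), where the rest of the chromosomes had 80.5 and 76.0%. The causes of these shifts were not tested. Few sites limit the precision: with 13 and 10 sites in clusters, intervals of densities span several fold, and the EB libraries are shallower than the ESC libraries.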
